A study of Homo sapiens with 2 samples.

Results

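The paired box (PAX) genes PAX1, PAX3, PAX4, PAX6, PAX7 and PAX9 were examined for OTX2 binding in D283 tumorspheres. The 6 genes were chosen by name from 19881 protein-coding genes. A peak was assigned to a gene when it overlapped the GENCODE gene record in GRCh38, extended by 100 kb on each side, by at least 1 bp. By this rule, 43 of the 137412 OTX2 peaks belonged to the 6 genes. PAX3 held 14 of them, PAX4 held 4, PAX6 held 17, PAX7 held 2, PAX9 held 6 and PAX1 held 0.

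D283 is an established medulloblastoma cell line, here grown as untreated OTX2-positive spheres in serum-free neural medium with EGF and bFGF. Chromatin immunoprecipitation sequencing (ChIP-Seq) pulls down sheared, crosslinked chromatin with an antibody and counts the DNA fragments along the genome. The OTX2 ChIP group was 1 library made with an Abcam antibody to OTX2, and the input group was 1 library of the same cells without antibody. With 1 library per group, no value has a replicate error and no difference was tested, and the results hold for a single cell line.

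PAX genes encode transcription factors that bind DNA through a paired domain and direct organ formation in the embryo. PAX3 and PAX7 act in the dorsal neural tube, the neural crest and muscle progenitors, PAX6 in the eye, brain and pancreas, PAX4 in pancreatic beta cell formation, and PAX1 and PAX9 in the vertebral column, pharyngeal pouches and, for PAX9, teeth. OTX2 is a homeodomain factor of forebrain, midbrain and retina whose preferred target is TAATCC, and related homeodomains share the TAAT core.

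The sequences just upstream of 3 of the genes are shown because they differ in these letters. They are the 250 bases before the RefSeq start (GRCh38.p14), 5′ to 3′ on the strand of the gene, with capitals marking TAAT, its reverse complement ATTA, and the whole of TAATCC or GGATTA where one is present. PAX7 is the only one of the 5 genes with a matched promoter (all but PAX1) that has TAATCC in it, PAX9 is the gene with an OTX2 peak near the start of its record, and PAX6 has the most peaks.
PAX7, chr1:18630596-18630845, plus strand: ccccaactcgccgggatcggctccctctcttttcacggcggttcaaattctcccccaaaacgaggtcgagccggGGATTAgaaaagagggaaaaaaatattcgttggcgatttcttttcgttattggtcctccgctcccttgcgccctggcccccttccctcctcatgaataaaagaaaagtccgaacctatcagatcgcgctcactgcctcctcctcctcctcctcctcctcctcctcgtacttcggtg
PAX9, chr14:36657318-36657567, plus strand: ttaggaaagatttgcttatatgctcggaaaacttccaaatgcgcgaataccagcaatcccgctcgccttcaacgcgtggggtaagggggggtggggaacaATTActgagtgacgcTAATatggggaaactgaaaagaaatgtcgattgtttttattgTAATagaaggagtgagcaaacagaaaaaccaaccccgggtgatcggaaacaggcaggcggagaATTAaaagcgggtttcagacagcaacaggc
PAX6, chr11:31817962-31818211, minus strand: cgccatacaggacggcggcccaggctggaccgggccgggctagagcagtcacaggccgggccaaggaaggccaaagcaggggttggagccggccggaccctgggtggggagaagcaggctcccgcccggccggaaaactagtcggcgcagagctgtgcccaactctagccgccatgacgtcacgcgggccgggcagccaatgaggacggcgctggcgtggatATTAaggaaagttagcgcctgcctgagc
RefSeq promoters, 250 bases before to 50 bases after each start, were searched on both strands for TAATCC, for TAATCT and for the core TAAT, which lies within both longer motifs. RefSeq promoters were matched for these 5 genes, 15 in all, of which 9 belonged to PAX6 and in part share sequence. TAATCC was present in 1 of the 15 against 6.36% of all 35116 promoters, TAATCT in 0 against 7.17%, and TAAT in 8 against 50.2%. The TAATCC of PAX7 reads on the minus strand from 176 to 171 bp upstream of the start (chr1:18630670-18630675). The nearest OTX2 peak lay 77.0 kb from that promoter. The TAAT cores upstream of PAX9 number 4, and the nearest peak lay 958 bp outside that promoter, while the PAX6 promoter shown, at the 5′ end of the record, has a single core and lay 2034 bp from the nearest peak. Of the other PAX6 promoters, 3 also hold TAAT. The other PAX9 promoter (chr14:36661610-36661909) holds 0 TAAT cores and lay 5250 bp from the nearest peak. A peak, of 22 fragments, overlapped 1 of the 15 promoters, a PAX6 promoter without TAAT (chr11:31809910-31810209), and another PAX6 promoter without TAAT (chr11:31812671-31812970) lay 61 bp from a peak of 84 fragments. These letters describe the reference sequence and do not mark a site.

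The height of a peak is its pileup, the fragment coverage at the summit as scaled by the authors' peak calling, in which 1 ChIP fragment adds 0.735. Heights are therefore also given as whole fragments, with exact 95% Poisson intervals that cover counting error only. The fold enrichment divides the pileup by the background estimated from the input around the peak (the local input), 1 being added to both. The ChIP library kept 61259377 of 84980793 fragments after duplicate removal and the input library 22521186 of 32292980. Read back from these values, the local input was never below 3.98, and 18 of the 43 PAX peaks (41.9%) lay within a fraction of 0.01 of this floor, against 32.5% of all peaks. For these peaks the fold enrichment was taken against a local input at or within this margin of the floor, which may not reflect input fragments at the site.

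Few of the PAX genes had a peak near the transcription start site (TSS) at the 5′ end of the gene record. With a TSS window reaching 5 kb upstream and 2 kb downstream of the 5′ end of the gene record, 57.2% of all protein-coding genes had a peak (Wilson 95% interval 56.5% to 57.9%), but 1 of the 6 PAX genes did, PAX9. Counted from any annotated transcript start instead, 3 of the 6 genes had a peak in such a window, against 66.6% of all genes. At least 1 peak anywhere in the extended record was present for 5 of the 6 genes, against 97.3% of all genes. A summit inside the gene record itself was present for 3 of the 6, PAX3, PAX6 and PAX7, against 62.7% of all genes. The 43 peaks comprised 1 TSS peak, 2 exonic peaks, 12 intronic peaks and 28 distal peaks, the last being outside both the TSS window and the gene record. Of the distal peaks, 14 lay upstream and 14 downstream, and 22 lay within the record of another protein-coding gene. These class counts are not set beside those of other genes. Outside the TSS window, the 100 kb added on each side is distal by definition.

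**Figure D1:**
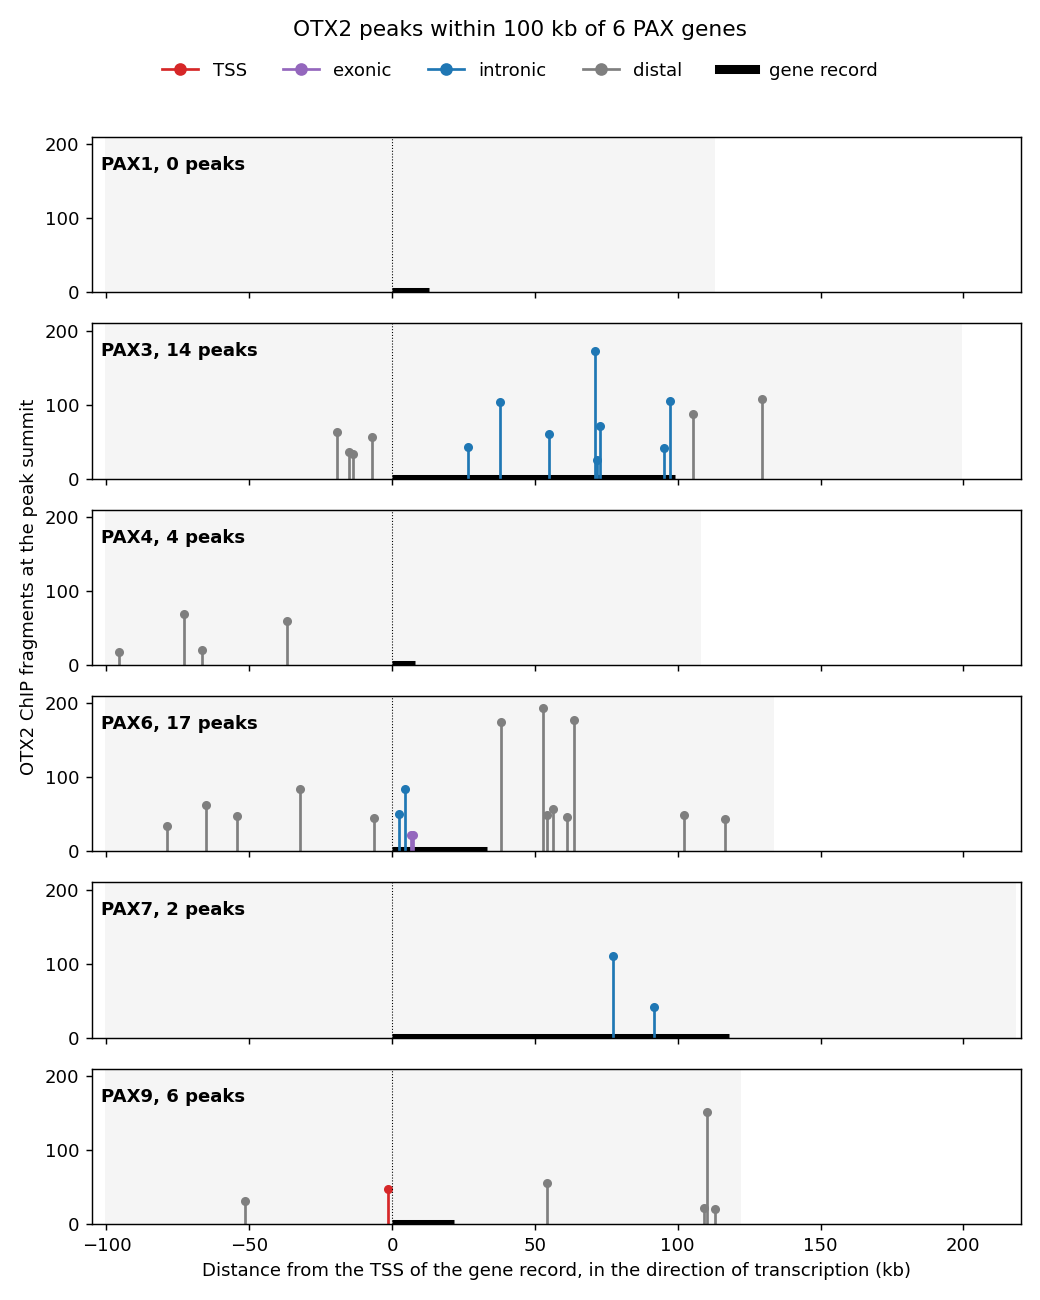
Each panel plots the OTX2 peaks of 1 PAX gene by distance of the summit from the TSS of the gene record (kb, positive in the direction of transcription) against the number of ChIP fragments at the summit. The grey area is the window searched, the black bar the gene record, and colours give the class of the peak. The 14 PAX3 peaks lie in and around the gene, the 3 tallest PAX6 peaks lie beyond its 3′ end, and the PAX1 window holds 0 peaks.

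PAX3 and PAX6 together held 31 of the 43 peaks (72.1%). As a group the PAX peaks were of ordinary height, with a median of 51.0 fragments (range 18 to 194) against 53.0 over all peaks (range 15 to 461). Their median fold enrichment was 6.10, the same value as over all peaks. At least 100 fragments were reached by 9 of the 43 (20.9%) against 23.4% of all peaks, and a fold enrichment of at least 5 by 26 (60.5%) against 62.9%. By class, the intronic peaks had a median of 66.0 fragments (range 25 to 172) and the distal peaks 52.5 (range 18 to 194), ranges that overlap almost completely. Of the peaks with at least 100 fragments, 4 belonged to PAX3, 3 to PAX6, 1 to PAX7 and 1 to PAX9.

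**Figure D2:**
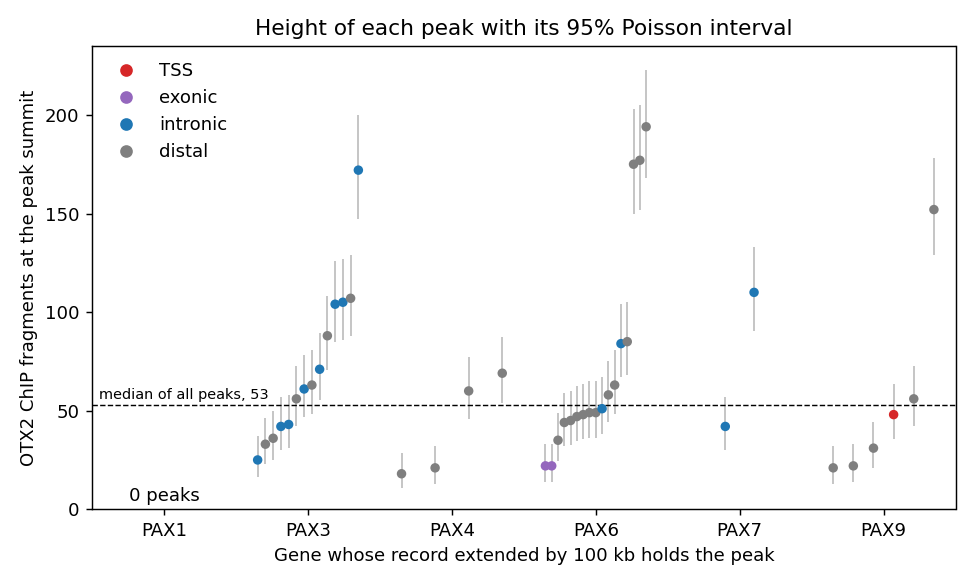
Points show the ChIP fragments at the summit of each of the 43 peaks by gene, coloured by class, with 95% Poisson intervals as bars and the median of all peaks, 53.0, as a dashed line. PAX6 has 3 peaks between 175 and 194 fragments set apart from its other 14, while all 4 PAX4 peaks lie at or below 69 fragments.

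Gene length and peak number were compared through the number of peaks per 100 kb of extended record, whose quartiles over all protein-coding genes were 2.94, 5.18 and 7.55. PAX6 had 7.29 peaks per 100 kb, more than 72.7% of genes. PAX3 had 4.68, more than 43.9% of genes. PAX9 had 2.71 and PAX4 1.92, both under the lowest quartile. PAX7 followed with 0.629, and 5.96% of genes had a lower value. PAX1 had 0 peaks in its window, as did 533 genes in all (2.68%). Within each pair of paralogs the density was higher for PAX3 than for PAX7, for PAX6 than for PAX4 and for PAX9 than for PAX1.

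**Figure D3:**
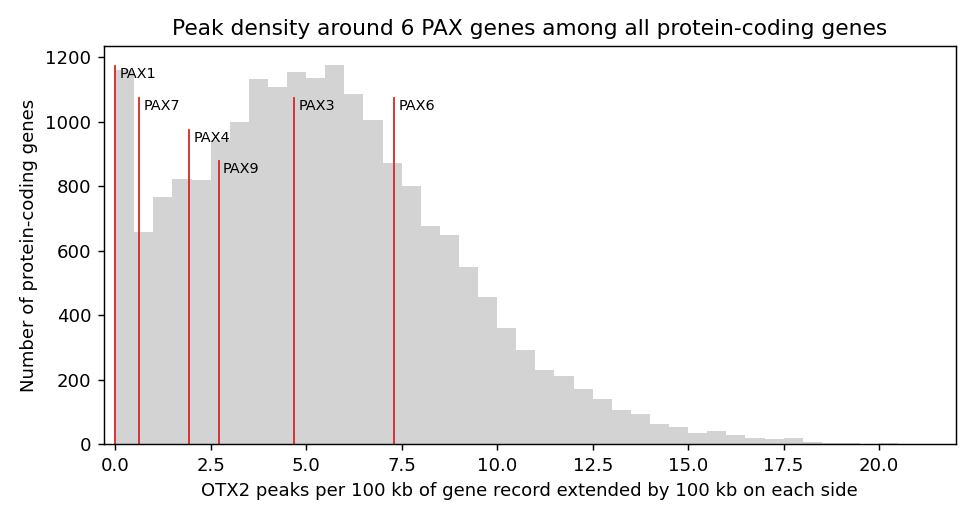
The histogram shows OTX2 peaks per 100 kb of extended gene record (x axis) against the number of protein-coding genes (y axis), with the 6 PAX genes as red lines. PAX6 at 7.29 and PAX3 at 4.68 lie in the bulk of the distribution, and PAX9, PAX4, PAX7 and PAX1 lie below its lowest quartile of 2.94.

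PAX3 (ENSG00000135903, chr2:222199887-222298998, minus strand, 99.1 kb), which specifies neural crest and muscle precursors, was occupied mainly inside the gene. Its record held 8 intronic peaks, 8.07 per 100 kb. The tallest lay in intron 5 of the canonical transcript at chr2:222227841-222228471, 70.9 kb downstream of the TSS. It had a pileup of 126, or 172 fragments (147 to 200), enriched 25.6-fold (−log10 q, 136, where q is the p-value corrected over all sites). This was the highest fold enrichment among the 43 PAX peaks, above that of 97.0% of all peaks, at a local input of 3.99, on the floor. The next intronic peaks had similar heights. The peak at chr2:222201386-222201973 in intron 8 had a pileup of 77.2, or 105 fragments (85.9 to 127), and a fold enrichment of 15.1. The peak at chr2:222261043-222261497 in intron 4 had a pileup of 76.5, or 104 fragments (85.0 to 126), and a fold enrichment of 14.9. Their intervals lay below that of the intron 5 peak, and the other 5 intronic peaks had 25 to 71 fragments. In intron 5, 3 peaks with 71, 25 and 172 fragments lay within 2.66 kb.

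Outside the PAX3 record, 2 distal peaks lay downstream and 4 upstream. The peak at chr2:222169310-222169744, 129 kb downstream of the TSS, had a pileup of 78.7, or 107 fragments (87.7 to 129), and a fold enrichment of 13.3. The peak at chr2:222193370-222194104, 105 kb downstream, had a pileup of 64.7, or 88 fragments (70.6 to 108), and a fold enrichment of 9.39. Both were taller than the upstream peaks, although the interval of the second overlapped those of the tallest 2 of them. The 4 upstream peaks lay within 12.4 kb and had 33 to 63 fragments. Of these the tallest, at chr2:222318027-222318372, had a pileup of 46.3, or 63 fragments (48.4 to 80.6), and a fold enrichment of 4.73. Its summit lay 19.2 kb upstream of PAX3 but inside the record of the gene ENSG00000288658 and 1998 bp from the start of that gene. The upstream peak nearest to PAX3 lay 7146 bp from its TSS, outside the TSS window, with 56 fragments.

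PAX7 (ENSG00000009709, chr1:18630846-18748866, plus strand, 118 kb), the paralog of PAX3 that maintains muscle satellite cells, had 2 peaks, both in intron 7 of the canonical transcript. The taller lay at chr1:18707872-18708268, 77.2 kb downstream of the TSS, with a pileup of 80.9, or 110 fragments (90.4 to 133), and a fold enrichment of 14.4. The other lay at chr1:18722384-18722639, 91.7 kb downstream, with a pileup of 30.9, or 42 fragments (30.3 to 56.8), and a fold enrichment of 6.39. The intervals of the 2 peaks did not overlap. Although PAX7 is the longer gene, its record held 1.69 peaks per 100 kb against 8.07 for PAX3. Outside the gene the nearest peaks were 285 kb upstream and 154 kb downstream, on a chromosome that carried 54.9 peaks per Mb against 47.9 for the chromosome of PAX3.

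PAX6 (ENSG00000007372, chr11:31784779-31817961, minus strand, 33.2 kb), a regulator of eye and forebrain formation that is also expressed in cerebellar granule cell precursors, had its tallest peaks beyond its 3′ end. Long-range enhancers of PAX6 are known in introns of the neighbouring gene ELP4, a subunit of the Elongator complex. Whether any peak lay at such an enhancer was not tested. The ELP4 record covers the whole downstream window, so all 8 downstream distal peaks necessarily lay in it. The tallest, at chr11:31764793-31765306, lay 52.9 kb downstream of the PAX6 TSS and had a pileup of 143, or 194 fragments (168 to 223), with a fold enrichment of 14.4. The peak at chr11:31753939-31754634, 63.7 kb downstream, had a pileup of 130, or 177 fragments (152 to 205), with a fold enrichment of 17.8. The peak at chr11:31779329-31780015, 38.2 kb downstream, had a pileup of 129, or 175 fragments (150 to 203), with a fold enrichment of 13.0. The intervals of the 3 peaks overlapped, so their heights could not be told apart at this depth. Their order by fold enrichment was different because the local input was 6.36 at the peak of 177 fragments and 9.0 at the other two. From 31753939 to 31765306, 5 peaks lay within 11.4 kb, the 3 between the tall ones having 47, 58 and 49 fragments. The highest local input of the 43 PAX peaks, 14.0, was at one of these, with 49 fragments and a fold enrichment of 2.47. The 5 distal peaks upstream of PAX6 had 35 to 85 fragments and reached 78.6 kb from the TSS.

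The 4 peaks within the PAX6 record were lower, and each summit lay within 714 bp of an annotated transcript start. PAX6 has 81 annotated transcripts with 66 distinct starts, so a short distance to one of them says little about the placement of a peak. The start of the canonical transcript lies 6639 bp downstream of the 5′ end of the gene record. The taller intronic peak, at chr11:31813031-31813725, had a pileup of 61.8, or 84 fragments (67.0 to 104), with a fold enrichment of 12.6, and its summit lay 2198 bp upstream of the canonical TSS. The start of an overlapping protein-coding gene on the opposite strand, ENSG00000285283, lay 1129 bp from that summit. The other intronic peak, at chr11:31815470-31815878, had a pileup of 37.5, or 51 fragments (38.0 to 67.1), with a fold enrichment of 4.81, and lay 4368 bp upstream of the canonical TSS. Its summit was 2271 bp downstream of the 5′ end of the record, just past the edge of the TSS window. The exonic peaks, at chr11:31810150-31810654 and chr11:31810947-31811374, each had a pileup of 16.2, or 22 fragments (13.8 to 33.3), enriched 3.44-fold (−log10 q, 4.13). Their summits lay 732 bp and 24 bp downstream of the canonical TSS, and the second was in exon 1 of that transcript. These low peaks were higher than 3.67% of all peaks. Measured from the canonical TSS, 4 peaks fell in the window for PAX6 and 0 in that for PAX9, so that the number of PAX genes with a TSS peak stayed at 1 of 6 but the gene changed, against 58.5% of all genes.

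**Figure D4:**
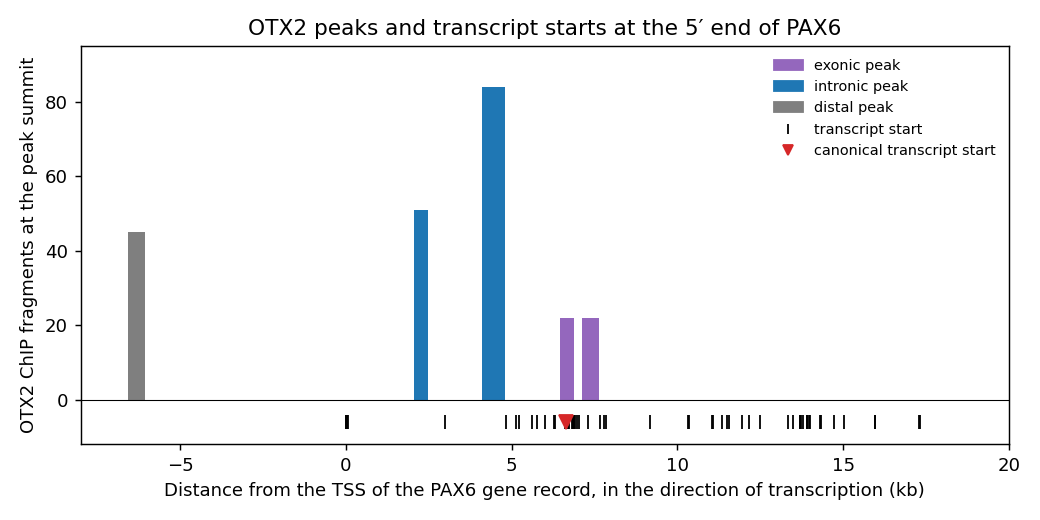
Bars show the OTX2 peaks at the 5′ end of PAX6, with distance from the TSS of the gene record (kb) on the x axis, the ChIP fragments at the summit on the y axis and the bar width equal to the peak length, centred on the summit. Ticks below mark transcript starts and the red triangle the canonical one. The intronic peaks of 84 and 51 fragments lie upstream of the canonical start and the exonic peaks of 22 fragments at and just downstream of it.

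PAX4 (ENSG00000106331, chr7:127610292-127618142, minus strand, 7.85 kb), the paralog of PAX6 in the endocrine pancreas, had 4 peaks, all distal, all upstream and all inside the record of SND1, a staphylococcal nuclease domain protein. The tallest, at chr7:127690817-127691209, lay 72.9 kb upstream with a pileup of 50.7, or 69 fragments (53.7 to 87.3), and a fold enrichment of 10.4. The nearest, at chr7:127654606-127654911, lay 36.7 kb upstream with a pileup of 44.1, or 60 fragments (45.8 to 77.2), and a fold enrichment of 6.45. That peak was 2609 bp from the start of SND1. The SND1 record begins at chr7:127652194 and covers the rest of the upstream window, so peaks beyond that point necessarily lay in it. The third, at chr7:127684502-127684845, had a pileup of 15.4, or 21 fragments (13.0 to 32.1), and a fold enrichment of 3.29, and the farthest had 18 fragments, the lowest of the 43 PAX peaks. Downstream the nearest peak was 124 kb away.

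PAX9 (ENSG00000198807, chr14:36657568-36679362, plus strand, 21.8 kb), required for tooth and thymus formation, was the gene with a peak in the TSS window of its record. That peak, at chr14:36655886-36656360, peaked 1449 bp before the TSS with a pileup of 35.3, or 48 fragments (35.4 to 63.6), enriched 5.18-fold (−log10 q, 13.9). It lay 5741 bp upstream of the canonical TSS and was higher than 44.1% of all peaks. The tallest PAX9 peak was distal, at chr14:36767382-36768165, 110 kb downstream of the TSS, with a pileup of 112, or 152 fragments (129 to 178), and a fold enrichment of 18.8. The second distal peak, at chr14:36711204-36712071, lay 54.2 kb downstream with a pileup of 41.2, or 56 fragments (42.3 to 72.7), and a fold enrichment of 8.46. The third, at chr14:36605830-36606136, lay 51.6 kb upstream with a pileup of 22.8, or 31 fragments (21.1 to 44.0), and a fold enrichment of 4.77. The protein-coding TSS nearest to its summit was that of NKX2-8, 23362 bp away. The record of SLC25A21, a mitochondrial carrier, covers the whole downstream window, so all 4 downstream peaks necessarily lay in it. The 2 downstream peaks not described had 21 and 22 fragments and flanked the tallest within 4.27 kb. The PAX9 record itself held 0 summits.

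PAX1 (ENSG00000125813, chr20:21705659-21718481, plus strand, 12.8 kb), the paralog of PAX9 in the sclerotome, had 0 peaks in its 213 kb window. The nearest peaks lay 133 kb upstream and 621 kb downstream. The gap between them, 767 kb, was longer than 99.95% of the 137306 gaps between neighbouring peaks, of which 73 were at least as long. That ranking counts each gap once whatever its length. Counted by gene, 2.68% of protein-coding genes had 0 peaks in their extended record. The chromosome as a whole carried 41.1 peaks per Mb. A window without a peak means that no site passed the cutoff of the authors, not that OTX2 was absent.

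The other 3 family members, which act in kidney, thyroid and B cells, also lacked a peak in the TSS window. PAX2 had 13 peaks in its extended record with up to 170 fragments, PAX5 had 20 with up to 153, and PAX8 had 14 with up to 155. Of these, 3, 8 and 6 were intronic and 9, 11 and 8 distal. The PAX8 peak of 155 fragments was distal, 120 kb downstream of the PAX8 TSS. It lay inside the record of PSD4, 1683 bp from the start of that gene. A peak in the TSS window of the gene record was thus present for 1 of the 9 PAX genes. Peaks did lie near other annotated starts inside 2 of these records. A PAX5 peak of 58 fragments lay 823 bp from a PAX5 start, and a PAX8 peak of 150 fragments lay 756 bp from a PAX8 start. For PAX2 the closest such distance was 24291 bp.

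Genes that act with the PAX factors or downstream of them were counted in the same TSS window. With the 3 further PAX genes included, 29 of 41 listed genes (70.7%) had one. Retinal determination genes, which act in a network with PAX6, had a peak in 9 of 12 cases, among them EYA3 with 88 fragments, 178 bp upstream. Proteins that bind PAX factors or serve as corepressors had one in 7 of 7, with 133 fragments at TLE3, 1700 bp upstream, and 87 at TLE4, 25 bp downstream. Among known targets of PAX3 or PAX7, 5 of 8 had a peak. DCT, a melanin synthesis enzyme, had 295 fragments (262 to 331) at a summit 56 bp upstream with a fold enrichment of 22.6, and MYF5, a myogenic factor, 66 fragments. Among targets of PAX6, 5 of 7 had a peak, with 245 fragments (215 to 278) at the proneural gene NEUROG2, whose summit lay 5525 bp upstream, and 196 (170 to 225) at TBR1, a cortical neuron factor, 168 bp upstream. Among targets of PAX1 or PAX9, 3 of 4 had one, with 127 fragments at NKX3-2 and 122 at OSR2. The lists are short, and their shares were read against the 57.2% of all genes without a test. The count also depended on the window: within 1 kb of the TSS, 20 of the 41 listed genes had a peak, against 46.9% of all genes.

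**Figure D5:**
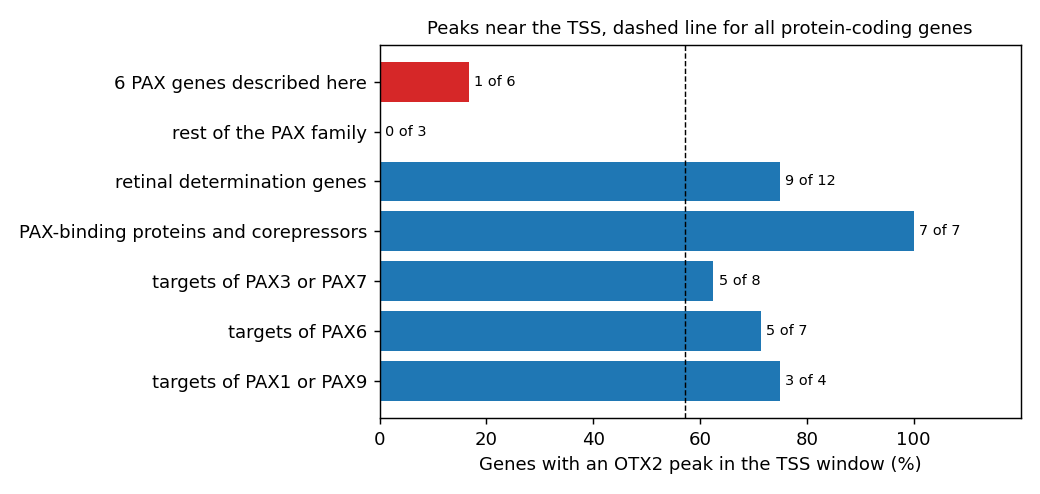
Bars show the percentage of genes in each list with an OTX2 peak in the TSS window of the gene record (5 kb upstream, 2 kb downstream). Counts are beside the bars, and the dashed line marks the 57.2% of all protein-coding genes. The 6 PAX genes (1 of 6) and the rest of the family (0 of 3) lie below the line, and the other 5 lists lie above it.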

How the data were processed

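OTX2 ChIP and input DNA of untreated D283 tumorspheres were sequenced (1 library each). Per the submitters' notes, reads were mapped to GRCh38 with Bowtie2 2.2.4 and peaks were called with MACS2 2.1.0.20140616, at a q-value cutoff of 0.05 per the file header. The authors' pileup is a signal in fragments at the summit, scaled between libraries. The authors' fold enrichment is a ratio of pileup to local input. The −log10 q-value was used as deposited. The study states that blacklisted regions were masked.

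Gene positions were the GRCh38 originals recorded in GENCODE release 44 as placed on GRCh37, and none was converted. Promoter sequences were those of RefSeq (GRCh38.p14). Peak sequences were not analysed here. A peak was TSS if it overlapped 5 kb upstream to 2 kb downstream of the 5′ end of the record, exonic or intronic if its summit lay in the record (exons of all transcripts), and distal otherwise. Tables were made with Python 3.11.15, pandas 2.3.3, numpy 2.4.6 and scipy 1.17.1, and plots with matplotlib 3.10.9. The overlap counts were tested on simulated peaks.

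The genes and lists were chosen with earlier results of these data known. For each gene every TSS peak and up to 3 peaks per other class with the highest pileup were named, and 2 genes per list, of which 1 is not reported here. The TAAT core, the grouping of peaks under 12.5 kb apart, the gap around PAX1, the shares of all peaks past 100 fragments or a fold enrichment of 5, and further single peaks given for their position or extreme value were chosen after seeing the data. Other thresholds, windows and TSS definitions were tried.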

Additional observations from a re-analysis of the deposited data

How the results depend on the processing

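No paired analysis was possible because each group held 1 library, which also could not be left out. The number of the 6 PAX genes with a TSS peak depended on the window: it was 0 within 1 kb of the TSS (46.9% of all genes), and 3 (PAX3, PAX6 and PAX9) from any transcript start (66.6% of all genes). From the canonical TSS it stayed at 1, PAX6 in place of PAX9. Stricter thresholds left PAX9, with 52.0% of all genes at a −log10 q of at least 5 and 38.5% at a fold enrichment of at least 5. At that fold enrichment 26 of the 43 peaks and 19 of the 29 listed genes with a TSS peak were left. Of the 41 listed genes, 20 had a peak within 1 kb of the TSS (46.9% of all genes). From the canonical TSS it was 27 (58.5% of all genes), and from any transcript start 36 (66.6%). Extending the records by 200 kb gave 87 peaks, of which PAX1 had 1, PAX3 and PAX6 29 each, PAX4 11, PAX7 5 and PAX9 12. Extending them by 50 kb gave 31. With exons of the canonical transcript alone, 1 peak was exonic and 13 intronic, and with a TSS class limited to summits within 1 kb, 0 peaks were TSS peaks and 29 distal. By fold enrichment the leading PAX6 peak was the one with 177 fragments, and the leading peak of PAX3, PAX4, PAX7 and PAX9 was the same one. For peaks at the floor the fold enrichment was taken against a local input at or near 3.98. How it would change with the depth of the input library was not tested.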
